A study of Mus musculus with 4 samples.

Results

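The genes described here encode the RAS-MAPK cascade, its feedback inhibitors and its immediate early targets, measured in the mouse glioma-initiating cell line NSCL61. The list held 46 genes, chosen by name and with earlier results of these data known. Of the 46 genes, 44 had a named probe, each with a value on all 4 arrays, among 13765 genes tested in all. Dusp5 and Jund were not analysed here. The 44 genes had 1 probe each, so no disagreement between probes of a gene could arise.

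NSCL61 was made from brain neural stem cells of C57BL6 mice, taken at postnatal day 0, by overexpression of an oncogenic HRas in cells that lack p53. Both groups therefore carry the oncogene and the loss of p53. The 2 Eva1 shRNA arrays hold RNA of NSCL61 cells that express a short hairpin RNA (shRNA) against Eva1, an adhesion protein gene named Mpzl2 in current mouse nomenclature. The 2 control arrays are labelled as NSCL61 alone, and the series title names a control hairpin. The labels give a hygromycin selection of 1 week after transfection and, for the Eva1 shRNA cells, one of 2 weeks. RNA of each sample was hybridised to a mouse 3D-Gene chip in a single colour. Whether replicates are separate cultures is not stated, and the p-values below therefore reflect the spread of these samples alone, which could be technical.

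RAS proteins are small GTPases that are switched on by exchange factors such as the Sos proteins and switched off by GTPase-activating proteins such as neurofibromin, the Nf1 product. Active RAS recruits RAF kinases, which phosphorylate MEK kinases, which phosphorylate the ERK kinases. ERK then induces immediate early genes (the Fos, Jun, Egr and Ier genes among them) and its own brakes, the MAP kinase phosphatases of the Dusp family and the Sprouty and Spred inhibitors. In gliomas this cascade is often held active by growth factor receptors or by loss of neurofibromin. An array measures messenger RNA, not the phosphorylation that carries the signal.

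Promoter windows are printed for 4 genes whose messenger RNA passed the test described below. Dusp1, Braf and Egr2 are shown because their window holds a motif bound by factors that the cascade or its neighbours activate. Dusp6, which ERK signalling induces and whose product is a phosphatase of ERK, is shown for comparison. Each window is RefSeq sequence from 250 bases before to 50 bases after the annotated transcription start, printed on the strand of the gene. Capitals mark a cyclic AMP response element (CRE) in Dusp1 and Braf and a CArG box, the site of serum response factor, in Egr2. Egr2 had 5 windows in the table, and the one with a motif is printed.
Dusp1 (GRCm38.p6, chr17:26508423-26508722, minus strand): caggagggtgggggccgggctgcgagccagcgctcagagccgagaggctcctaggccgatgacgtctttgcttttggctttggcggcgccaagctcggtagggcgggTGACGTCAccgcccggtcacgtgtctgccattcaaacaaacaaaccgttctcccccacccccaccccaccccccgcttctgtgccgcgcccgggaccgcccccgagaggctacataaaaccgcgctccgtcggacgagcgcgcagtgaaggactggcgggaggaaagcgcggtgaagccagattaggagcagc
Braf (GRCm38.p6, chr6:39725414-39725713, minus strand): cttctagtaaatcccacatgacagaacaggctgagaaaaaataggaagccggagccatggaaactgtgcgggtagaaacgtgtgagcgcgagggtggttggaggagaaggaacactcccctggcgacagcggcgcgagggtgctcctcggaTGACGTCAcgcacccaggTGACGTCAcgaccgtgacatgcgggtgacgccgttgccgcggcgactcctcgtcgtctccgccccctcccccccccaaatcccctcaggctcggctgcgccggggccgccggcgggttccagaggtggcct
Egr2 (GRCm38.p6, chr10:67537316-67537615, plus strand): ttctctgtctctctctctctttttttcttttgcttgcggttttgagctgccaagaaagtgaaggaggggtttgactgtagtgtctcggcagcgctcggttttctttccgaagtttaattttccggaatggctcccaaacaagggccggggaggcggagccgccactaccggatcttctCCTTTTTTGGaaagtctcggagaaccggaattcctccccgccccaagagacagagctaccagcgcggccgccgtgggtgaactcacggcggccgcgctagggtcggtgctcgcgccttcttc
Dusp6 (GRCm38.p6, chr10:99262981-99263280, plus strand): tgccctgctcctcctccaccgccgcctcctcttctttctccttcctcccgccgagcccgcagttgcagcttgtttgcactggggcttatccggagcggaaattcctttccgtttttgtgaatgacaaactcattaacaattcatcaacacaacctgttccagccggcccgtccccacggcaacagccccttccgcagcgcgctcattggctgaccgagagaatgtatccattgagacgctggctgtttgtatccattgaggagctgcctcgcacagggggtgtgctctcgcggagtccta

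Both strands of all 300-base windows were searched for 5 motifs, and no match of one motif was inside a match of another in the windows printed. The CRE, TGACGTCA, was in 1.79% of 32851 mouse promoter windows and in windows of 3 of the 37 listed genes with a window, Braf, Dusp1 and Ptpn11. Those 37 genes had 48 windows, so counts of genes here are not directly comparable with shares of windows. The window of Braf held the CRE at 2 places and that of Dusp1 at 1. The CArG box was in 1.63% of windows and, among the listed genes, in those of Dusp5 and Egr2. The AP-1 motif, TGANTCA, was in 7.81% of windows and in those of Ksr1 and Shc1. The ETS motif, CCGGAAG, was in 8.86% of windows and in those of Nf1, Ptpn11, Rasa1 and Shc1. The motifs TGAATGAA and TGAATGGA of the repressor CIC were, counted as 1 motif, in 2.47% of windows and in those of Fos, Fosb and Grb2. The genes that passed the test and share the CRE went different ways, Dusp1 higher and Braf lower. A match is a description of the letters in the window, and none of these 5 motifs occurs in the printed window of Dusp6.

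Mpzl2, the target of the hairpin, had intensities of 8.20 and 6.21 on the Eva1 shRNA arrays, against 55.0 and 54.4 on the control arrays. It was 8.72-fold lower, with no overlap between the groups (limma over 19199 probes, log2 change -3.12, adjusted p = 0.00172). Because the Eva1 shRNA values are dim, the size depends on how low signal is treated, and the log2 change was -1.71 when 16 units were added to each intensity. Intensities are the deposited linear values, scaled to a median near 25 on each array. Between 20662 and 21842 of the 23473 probes had a value, and the lowest values of the arrays lay between 1.19 and 1.44. Each log2 change is the Eva1 shRNA mean less the control mean after quantile normalization. The correlation across probes was 0.993 between the Eva1 shRNA arrays and 0.991 between the control arrays, and it was 0.964 to 0.970 for pairs that mix the groups. Of the 9 neural stem and progenitor markers 6 were tested, and Vim and Nes were well above the array median in both groups. The log2 changes of 5 were negative and that of Vim was positive. Those of Nes (-0.47, adjusted p = 0.0558), Msi1 (-0.24), Olig2 (-0.66, dim) and Vim (0.33) did not pass. Fabp7 and Sox9 fell, with log2 changes of -1.15 and -0.87 (adjusted p = 0.00521 and 0.0112). Fabp7 was dim, and its log2 change was -0.59 after the addition of 16 units. The tested markers of astrocytes (2), oligodendrocytes (3), microglia (4) and endothelial cells (2) summed to between 12.9 and 97.1 per list on every array, and 0 of them passed the limma test, while 2 (Aldh1l1 and Cx3cr1) had an unadjusted p under 0.05. Of 3 neuronal markers Tubb3 rose by 0.84, while Map2 and Dcx had log2 changes of -0.26 and -0.11 that did not pass. Of 6 fibroblast and pericyte markers Col1a2 and Pdgfrb rose by 0.76 and 0.54 while Rgs5 fell, with a log2 change of -2.53 (-0.86 after the addition of 16 units). Dcn had a log2 change of -2.02 that did not pass (adjusted p = 0.0532). Of these 6 marker calls, that of Fabp7 held whichever array was left out, and the other 5 were lost in at least 1 case. The summed intensity of the fibroblast and pericyte list was 219 and 154 on the Eva1 shRNA arrays, against 230 and 208 on the control arrays. The part of these markers in the results below was not tested.

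More of the RAS-MAPK genes were lower than higher in the Eva1 shRNA cells. Of the 44 genes, 11 fell, 2 rose and 31 did not pass (limma, two-sided, adjusted p under 0.05 over all 13765 genes). The 11 were Rras, Braf, Map2k1, Mapk3, Dusp6, Dusp14, Spry4, Spred1, Spred2, Egr2 and Ier3, and the 2 that rose were Dusp1 and Spry1. Over all genes, 26% passed the test, 12.5% higher and 13.5% lower. The share of the 44 that passed, 29.5%, was near that background, and the share that fell, 25%, was above the 13.5% of all genes. Because the list was chosen with earlier results of these data known, these shares are not an independent test. The median log2 change was -0.19 for the 44 genes and -0.01 for all genes. Groups did not overlap after normalization for 36 of the 44 genes, 12 higher and 24 lower, beside 66.7% of all genes. The balance between directions depended on the scaling, for these genes and for all genes. With the intensities as deposited, 7 of the 44 genes were called higher and 7 lower, beside 2714 higher and 1295 lower of all 13765 genes. The median log2 change was then -0.03 for the 44 genes and 0.18 for all genes. The log2 changes of 6 genes that did not pass, Hras1, Grb2, Nf1, Araf, Map2k2 and Etv5, turned positive with that scaling.

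**Figure D1:**
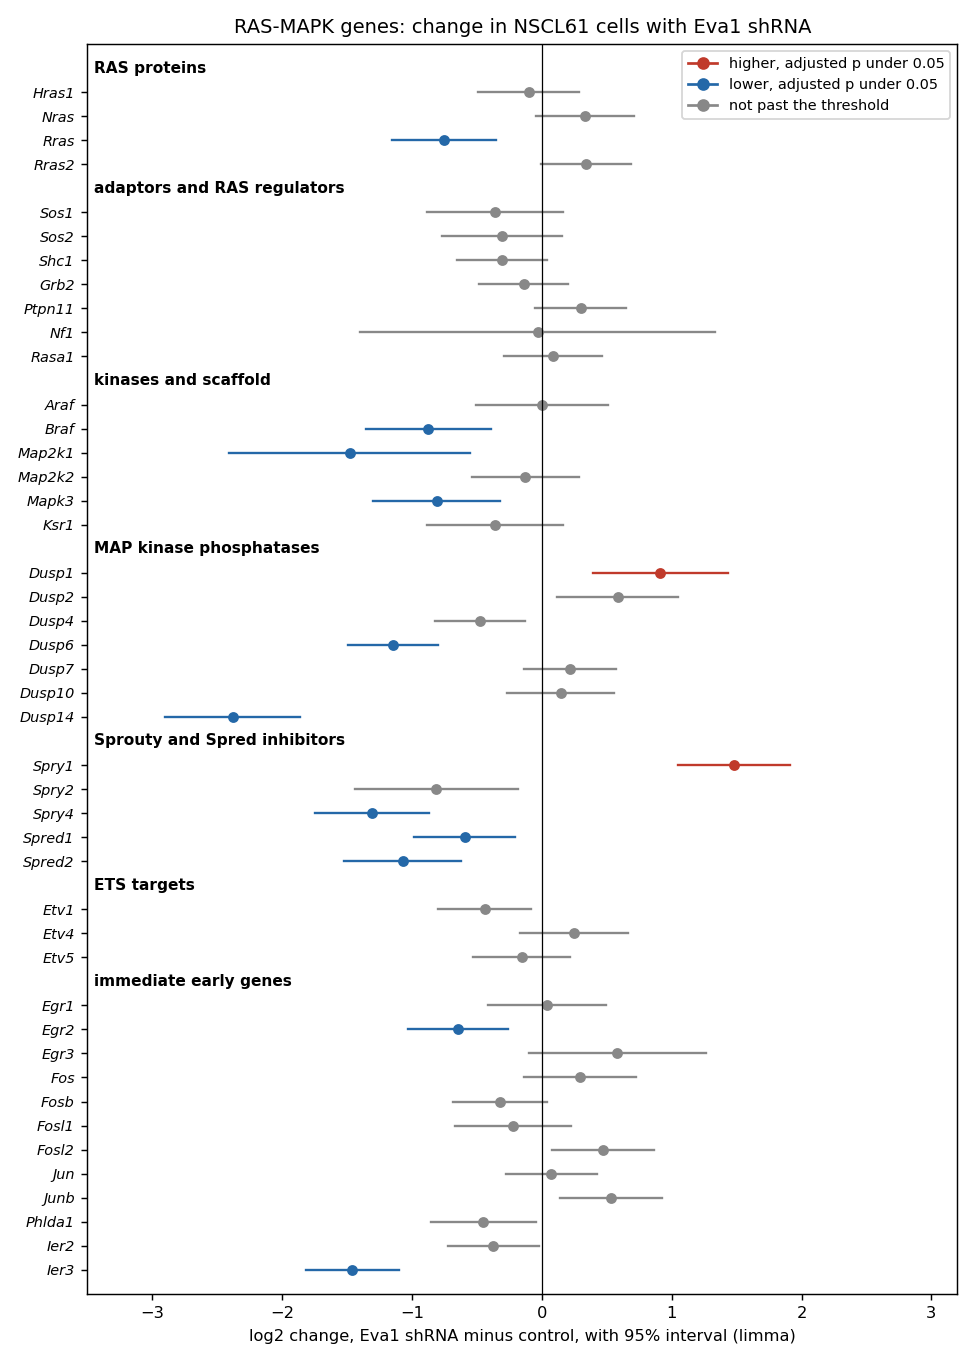
Log2 change (Eva1 shRNA minus control, x axis) of the 44 RAS-MAPK genes, grouped by role from top to bottom, with the 95% interval from limma as a line (2 arrays in each group). Blue points (11 genes) were lower and red points (2 genes, Dusp1 and Spry1) higher at adjusted p under 0.05. Grey points did not pass.

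The calls of 5 genes, Dusp14, Ier3, Dusp6, Spry4 and Spry1, held under each of 14 alternative settings, including each array left out in turn. Each of the other 8 lost its call when at least 1 array was left out. In these pooled cells, a lower signal in every cell and a loss of signal in some of the cells cannot be told apart.

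**Figure D2:**
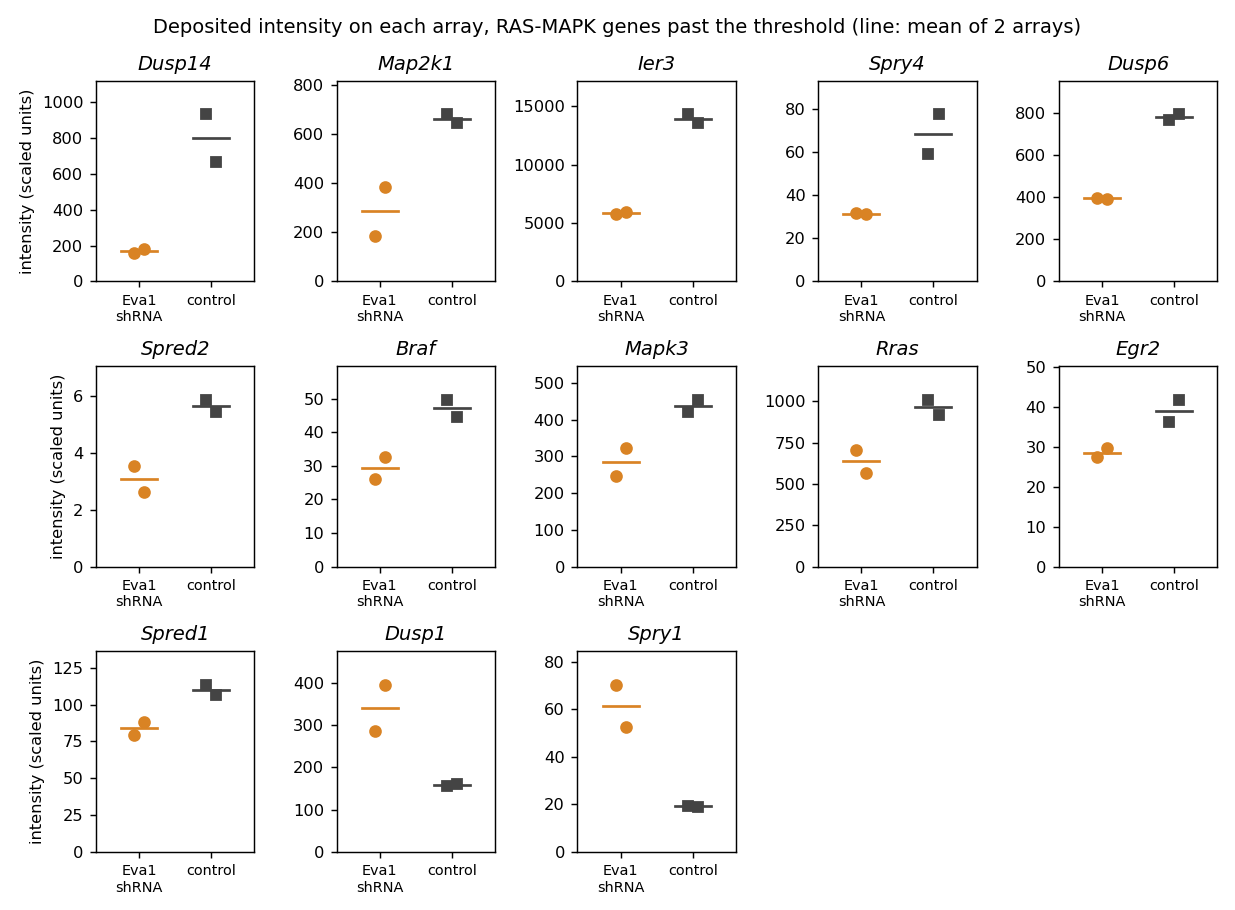
Deposited linear intensity (scaled units, y axis from 0) on each array for the 13 genes past the threshold, ordered from the largest fall to the largest rise. Circles are the 2 Eva1 shRNA arrays, squares the 2 control arrays, and each line is a mean. The groups do not overlap for any of the 13, and the 2 Eva1 shRNA values of Map2k1 lie far apart, at 183 and 386.

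Of the 4 RAS genes Rras fell, 0 rose and 3 did not pass the limma test, 0 of those 3 with an unadjusted p under 0.05. Hras1 (Hras in current nomenclature), the gene whose oncogenic form was used to make the line, had intensities of 50.8 and 57.1 on the Eva1 shRNA arrays, against 50.7 and 51.8 on the control arrays. The groups overlapped, and its log2 change was -0.10 with a 95% interval from -0.49 to 0.29 (adjusted p = 0.662). Whether the probe also reads the introduced HRas is not given in the sources used here. Nras, another classical RAS gene, had 279 and 251 on the Eva1 shRNA arrays, against 199 and 177 on the control arrays. Both Eva1 shRNA values of Nras lay above both control values, but its log2 change of 0.33 did not pass (SE 0.15, adjusted p = 0.162), though it did after the addition of 16 units (adjusted p = 0.0429).

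Rras encodes a related GTPase that has been linked to integrin-dependent adhesion. Its intensities were 705 and 566 on the Eva1 shRNA arrays, against 1009 and 918 on the control arrays. Rras was 1.69-fold lower with no overlap (log2 change -0.76, SE 0.16, adjusted p = 0.024). The call was lost with the intensities as deposited (adjusted p = 0.0508) and whichever array was left out, with adjusted p up to 0.127. Rras2, also called TC21, had 548 and 507 on the Eva1 shRNA arrays, against 363 and 376 on the control arrays. Its log2 change of 0.34 did not pass (SE 0.14, adjusted p = 0.128). Rras2 was called higher with the intensities as deposited (log2 change 0.51, adjusted p = 0.0469), after the addition of 16 units (0.0218) and with a trended eBayes (0.0435).

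None of the 7 adaptors and RAS regulators passed the limma test, and 0 of them had an unadjusted p under 0.05, beside 40.1% of all genes. These are the exchange factor genes Sos1 and Sos2, the adaptor genes Shc1 and Grb2, the phosphatase gene Ptpn11 (Shp2) and the GTPase-activating protein genes Nf1 and Rasa1. Their log2 changes ran from -0.36 (Sos1) to 0.30 (Ptpn11), with a median of -0.14. Ptpn11 had 17.2 and 17.8 on the Eva1 shRNA arrays, against 11.8 and 12.6 on the control arrays. Shc1 had 272 and 280 on the Eva1 shRNA arrays, against 308 and 302 on the control arrays. For both genes the groups did not overlap, with adjusted p = 0.176 for Ptpn11 and 0.159 for Shc1. Shc1 was called lower after the addition of 16 units (adjusted p = 0.0357) and Ptpn11 higher with the intensities as deposited (0.044).

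Both GTPase-activating protein genes had overlapping groups after normalization. Nf1, the neurofibromin gene, had 3.70 and 3.73 on the Eva1 shRNA arrays, against 1.88 and 6.29 on the control arrays. The control arrays enclosed the Eva1 shRNA values, and the log2 change of -0.03 had the widest interval of the 44 genes, from -1.40 to 1.33. All 4 values lay under 19.97, the highest mean of any probe left blank on both arrays of a group. Rasa1, a second GTPase-activating protein gene, had 540 and 468 on the Eva1 shRNA arrays, against 448 and 392 on the control arrays, with a log2 change of 0.09 with an interval from -0.29 to 0.46.

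At each tier of the kinase cascade a gene fell. Of 6 kinase and scaffold genes, the RAF gene Braf, the MEK gene Map2k1 and the ERK gene Mapk3 fell, 0 rose and 3 did not pass, with a median log2 change of -0.59. Braf had 26.0 and 32.8 on the Eva1 shRNA arrays, against 49.7 and 44.5 on the control arrays. It was 1.83-fold lower (log2 change -0.87, SE 0.19, adjusted p = 0.0273). Araf, the other RAF gene measured, had 185 and 129 on the Eva1 shRNA arrays, against 129 and 145 on the control arrays. The groups of Araf overlapped, and its log2 change near 0 had an interval from -0.51 to 0.51.

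Map2k1 showed the largest fall of the 3. Its intensities were 183 and 386 on the Eva1 shRNA arrays, against 678 and 644 on the control arrays. Both Eva1 shRNA values lay below both control values but were far from each other, which gave an SE of 0.37 on a log2 change of -1.48 (2.79-fold lower, adjusted p = 0.0387). Map2k2, the related MEK gene, had 1349 and 1470 on the Eva1 shRNA arrays, against 1559 and 1253 on the control arrays. The groups of Map2k2 overlapped, with a log2 change of -0.13 and an interval from -0.54 to 0.29. The difference between the changes of Map2k1 and Map2k2 was not tested.

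Mapk3, one of the ERK genes, had 247 and 322 on the Eva1 shRNA arrays, against 420 and 455 on the control arrays. It was 1.75-fold lower with no overlap (log2 change -0.81, SE 0.19, adjusted p = 0.0347). Ksr1, a scaffold that holds RAF, MEK and ERK together, had 17.0 and 11.3 on the Eva1 shRNA arrays, against 15.6 and 15.1 on the control arrays, and did not pass (adjusted p = 0.252). The calls of Braf, Map2k1 and Mapk3 held without Eva1 shRNA array 2 and were lost without each of the other 3 arrays, with adjusted p up to 0.123, 0.14 and 0.149. They were also lost with blank cells filled by the lowest value of the array (adjusted p = 0.0523, 0.0749 and 0.063), and that of Mapk3 with the intensities as deposited (0.0537).

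The MAP kinase phosphatases divided. Of 7 measured, Dusp14 and Dusp6 fell, Dusp1 rose and 4 did not pass. Dusp14, a small dual-specificity phosphatase gene, had the largest change of the 44 genes. Its intensities were 158 and 180 on the Eva1 shRNA arrays, against 932 and 669 on the control arrays. Dusp14 was 5.21-fold lower (log2 change -2.38, SE 0.21, adjusted p = 0.00239).

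Dusp6 encodes a cytoplasmic phosphatase that is selective for ERK and is itself a transcriptional target of ERK signalling. It had 395 and 394 on the Eva1 shRNA arrays, against 768 and 794 on the control arrays. The arrays of each group lay close together, and Dusp6 was 2.21-fold lower (log2 change -1.15, SE 0.14, adjusted p = 0.0052). Its adjusted p was at most 0.0427 with an array left out. Dusp4, a nuclear relative that is also induced by ERK, had 169 and 175 on the Eva1 shRNA arrays, against 213 and 214 on the control arrays. The groups of Dusp4 did not overlap, but its log2 change of -0.48 did not pass (SE 0.14, adjusted p = 0.0566). Dusp4 was called lower in 4 of the 14 alternative settings, among them the addition of 16 units (adjusted p = 0.00562).

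Dusp1, a nuclear phosphatase gene of stress and growth factor responses that acts on p38 and JNK as well as ERK, was higher. It had 286 and 396 on the Eva1 shRNA arrays, against 157 and 161 on the control arrays. Dusp1 was 1.88-fold higher (log2 change 0.91, SE 0.21, adjusted p = 0.0299), a call that held without Eva1 shRNA array 1 and was lost without each of the other 3 arrays (adjusted p up to 0.11) and with blank cells filled (0.0565). Dusp2, another nuclear phosphatase gene, had 45.9 and 34.1 on the Eva1 shRNA arrays, against 24.3 and 21.9 on the control arrays, and its log2 change of 0.58 did not pass (adjusted p = 0.0731). Dusp2 was called higher in 5 of the 14 alternative settings, among them the addition of 16 units (adjusted p = 0.0284). The remaining genes, Dusp7 and Dusp10, had log2 changes of 0.22 and 0.14 and did not pass (adjusted p = 0.307 and 0.556).

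The Sprouty and Spred genes were the group with the highest share of calls. Sprouty proteins restrain signalling between receptor tyrosine kinases and RAS or RAF, and Spred proteins bring neurofibromin to the membrane. Of 5 genes, Spry4, Spred1 and Spred2 fell, Spry1 rose and Spry2 did not pass. The share past the threshold was 80%, beside 26% of all genes, but 5 genes are few and no test of the group was made.

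Spry4 had 31.7 and 31.3 on the Eva1 shRNA arrays, against 59.2 and 77.7 on the control arrays. It was 2.47-fold lower (log2 change -1.31, SE 0.17, adjusted p = 0.00671). Spry1 went the other way, with 70.4 and 52.7 on the Eva1 shRNA arrays, against 19.3 and 19.0 on the control arrays. Spry1 was 2.79-fold higher (log2 change 1.48, SE 0.17, adjusted p = 0.00475), and the control values were under the array median of 25. When 16 units were added to every intensity, a step that shrinks changes of dim probes, its log2 change was 1.01 and that of Spry4 was -0.97. Both kept their calls with any array left out, with adjusted p up to 0.0321 for Spry1 and 0.0477 for Spry4.

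Spred1 had 79.4 and 88.2 on the Eva1 shRNA arrays, against 114 and 106 on the control arrays. Its 1.51-fold fall (log2 change -0.59, SE 0.15, adjusted p = 0.0432) was lost whichever array was left out (adjusted p up to 0.203), with the intensities as deposited (0.101), with blank cells filled (0.0688) and with the replicate number as a block (0.0715). Spred2 had 3.55 and 2.62 on the Eva1 shRNA arrays, against 5.88 and 5.45 on the control arrays, near the lowest values of the arrays. Its log2 change was -1.07 (SE 0.18, adjusted p = 0.0127) but -0.23 with 16 units added (adjusted p = 0.089), so the size of this fall is not settled, and the call was also lost without Eva1 shRNA array 2 (adjusted p = 0.0703) and without control array 1. Spry2 was as dim, with 3.59 and 3.32 on the Eva1 shRNA arrays, against 4.01 and 7.03 on the control arrays. Its log2 change of -0.81 did not pass (SE 0.25, adjusted p = 0.0659).

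The PEA3 factors Etv1, Etv4 and Etv5, transcription factors that ERK signalling induces in many cells, did not pass the limma test, and 1 of them, Etv1, had an unadjusted p under 0.05. Etv4 had 215 and 172 on the Eva1 shRNA arrays, against 133 and 154 on the control arrays. Etv5 had 107 and 99.0 on the Eva1 shRNA arrays, against 107 and 94.6 on the control arrays. The groups of Etv5 overlapped as deposited but not after normalization, while both Eva1 shRNA values of Etv4 lay above both control values. The log2 changes were 0.24 for Etv4 (interval -0.17 to 0.66, adjusted p = 0.324) and -0.16 for Etv5 (interval -0.53 to 0.22, adjusted p = 0.479). Etv1 was near the lowest values of the arrays, with 1.61 and 1.61 on the Eva1 shRNA arrays, against 2.17 and 2.09 on the control arrays (log2 change -0.44, adjusted p = 0.077).

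Among 12 immediate early genes Ier3 and Egr2 fell, 0 rose and 10 did not pass, with a median log2 change of -0.09. Ier3 is induced early by growth factors and by NF-κB. It had 5751 and 5951 on the Eva1 shRNA arrays, against 14309 and 13599 on the control arrays. Ier3 was 2.75-fold lower, with close agreement between the arrays of each group (log2 change -1.46, SE 0.14, adjusted p = 0.00309), and its adjusted p was at most 0.0282 with an array left out. Egr2, a zinc finger factor gene, had 27.4 and 29.6 on the Eva1 shRNA arrays, against 36.2 and 41.8 on the control arrays. The 1.57-fold fall of Egr2 (log2 change -0.65, SE 0.15, adjusted p = 0.0331) was lost whichever array was left out (adjusted p up to 0.166), with the intensities as deposited (0.0817) and with blank cells filled (0.0556).

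Egr1 is the zinc finger gene most often used as a marker of recent ERK activity. It had 800 and 762 on the Eva1 shRNA arrays, against 605 and 783 on the control arrays. The groups overlapped, and its log2 change was 0.04 with an interval from -0.41 to 0.49 (adjusted p = 0.892). Egr3 was dim on every array, between 2.04 and 4.78, and did not pass (log2 change 0.58, adjusted p = 0.176). The 3 Egr genes measured thus gave log2 changes of 0.04, -0.65 and 0.58.

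The AP-1 genes encode Fos and Jun proteins that pair to form a transcription factor, and 0 of the 6 measured passed the limma test, while Fosl2 and Junb had an unadjusted p under 0.05. Fos had 24.4 and 25.8 on the Eva1 shRNA arrays, against 15.4 and 20.3 on the control arrays, near the array median of 25. Its log2 change was 0.29 (SE 0.17, adjusted p = 0.264). Fosl1, the Fos relative that accumulates under sustained ERK signalling, had 943 and 962 on the Eva1 shRNA arrays, against 898 and 1129 on the control arrays. The deposited Eva1 shRNA values of Fosl1 lay between the control values, though the normalized groups did not overlap, with a log2 change of -0.22 (interval -0.67 to 0.22, adjusted p = 0.396). Fosb had a log2 change of -0.32 and Fosl2, which was dim, one of 0.47 (adjusted p = 0.16 and 0.0795).

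Jun had 391 and 401 on the Eva1 shRNA arrays, against 336 and 327 on the control arrays. The deposited values did not overlap, but the normalized ones did, and the log2 change was 0.07 (interval -0.28 to 0.42, adjusted p = 0.74). Junb had 323 and 359 on the Eva1 shRNA arrays, against 196 and 223 on the control arrays. Both Eva1 shRNA values of Junb lay above both control values, and its log2 change of 0.53 fell short of the threshold (SE 0.16, adjusted p = 0.0601). Junb was called higher in 5 of the 14 alternative settings, among them the intensities as deposited (adjusted p = 0.026) and the addition of 16 units (0.00682). Of the 6 genes, Junb had the smallest adjusted p.

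Phlda1 and Ier2 are early response genes of unrelated proteins. Phlda1, a member of several published ERK activity signatures, had 615 and 569 on the Eva1 shRNA arrays, against 819 and 658 on the control arrays. Its log2 change of -0.45 did not pass (SE 0.16, adjusted p = 0.0967). Ier2 had 494 and 505 on the Eva1 shRNA arrays, against 572 and 589 on the control arrays, and a log2 change of -0.37 (SE 0.14, adjusted p = 0.107). Neither gene's groups overlapped, and both genes were called lower after the addition of 16 units (adjusted p = 0.0155 for each).

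Read by role, the calls were not spread evenly over the 44 genes. The share past the threshold was 80% of Sprouty and Spred genes, 50% of kinases and scaffold, 42.9% of phosphatases, 25% of RAS genes and 16.7% of immediate early genes, beside 26% of all genes. It was 0 of 7 adaptors and regulators and 0 of 3 PEA3 factor genes. These groups are small, and the differences between them were not tested. By brightness, 11 of the 32 genes with both group means at 25 or more passed, 10 lower and 1 higher, and 2 of the other 12 passed, 1 lower (Spred2) and 1 higher (Spry1). The shares of all genes at these brightness levels were not counted, so this split is not read as a trait of the list. With the dimmest 25% of probes left out, 43.6% of the 39 listed genes still tested passed, beside 42.5% of all genes.

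**Figure D3:**
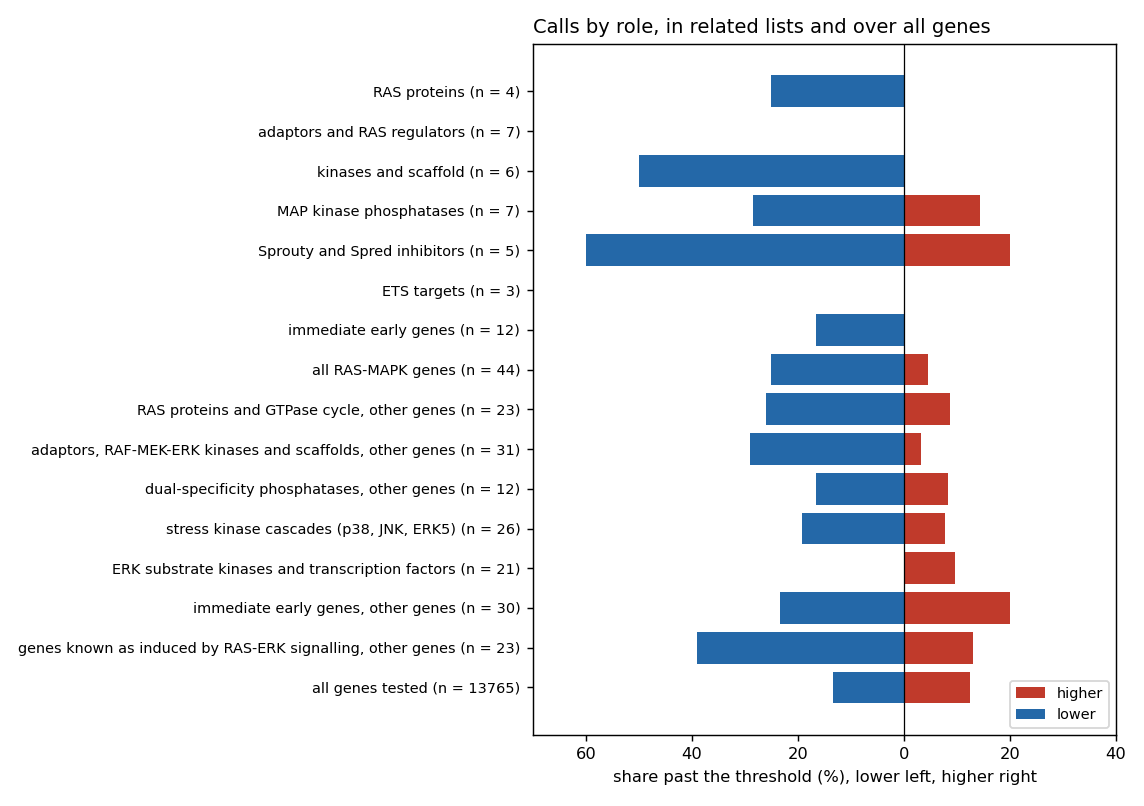
Share of tested genes (x axis, percent) that were lower (blue, to the left) or higher (red, to the right) in Eva1 shRNA cells at adjusted p under 0.05, for the roles within the 44 RAS-MAPK genes, for related gene lists and for all 13765 genes. The Sprouty and Spred genes have the longest bars of the roles, and of the related lists the genes known as induced by RAS-ERK signalling have the longest bar to the left. Housekeeping genes are not drawn.

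Other genes of the pathway were counted in 7 further lists. Of 23 tested genes known as induced by RAS-ERK signalling, 9 fell, 3 rose and 11 did not pass, with a median log2 change of -0.34 beside -0.01 for all genes. The share that passed was 52.2%, beside 26% of all genes. This list was also chosen with earlier results of these data known, so its share is not independent support. The 4 with the smallest p all fell, namely the plasminogen activator gene Plau (-2.88), the collagenase gene Mmp13 (-2.48), the stromelysin gene Mmp10 (-1.91) and the uridine phosphorylase gene Upp1 (-1.20). Mmp13 had 36.6 and 41.9 on the Eva1 shRNA arrays, against 202 and 182 on the control arrays. Plau was dim in the Eva1 shRNA cells, with 4.11 and 3.42, against 26.6 and 22.1 on the control arrays, and its log2 change was -1.11 with 16 units added. The call of Upp1 was lost with an array left out (adjusted p up to 0.0536). The 3 genes that rose, named after their values were seen, were the chemokine gene Cxcl1 (log2 change 2.44), the ephrin receptor gene Epha4 (1.79) and the cytokine gene Il6 (0.94). With 16 units added their log2 changes were 0.63, 0.31 and 0.58, and each lost its call with at least 1 array left out (adjusted p up to 0.0634, 0.0526 and 0.0971).

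Of 30 other immediate early genes tested, 7 fell, 6 rose and 17 did not pass, with a median of -0.10. In this list 43.3% passed, beside 26% of all genes. Rgs2, which restrains G protein signalling, had a log2 change of 2.39 and the stress response gene Gadd45b one of 1.88. The log2 change was -1.78 for the GTPase gene Gem and -1.14 for the kinase gene Sgk1. Rgs2 had 370 and 352 on the Eva1 shRNA arrays, against 60.9 and 59.8 on the control arrays. Thus both directions were present among these genes, as among the 44.

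Of 23 other RAS and GTPase cycle genes, 6 fell, 2 rose and 15 did not pass, with a median of -0.06. Past the threshold were 34.8% of them, beside 26% of all genes. Rin2, an effector of RAS and exchange factor for Rab GTPases, had a log2 change of -2.81, the GTPase-activating protein gene Rasa4 one of -2.16 and the RAS effector gene Ralgds one of -1.71. The effector gene Rassf5 rose, its log2 change being 1.62 (0.59 once 16 units were added). Of 31 other adaptor, kinase and scaffold genes, 9 fell, 1 rose and 21 did not pass (32.3% past the threshold), with a median of -0.20. Arrb1, an arrestin gene, had a log2 change of -2.11 and Il17rd, an inhibitor of fibroblast growth factor signalling also called Sef, one of -1.67. Il17rd had 22.3 and 20.7 on the Eva1 shRNA arrays, against 51.4 and 68.3 on the control arrays. The phosphatase genes Ptpn6 and Ptpn5 had log2 changes of -2.57 and -1.47, or -1.24 and -0.42 with 16 units added, and the call of Ptpn5 was lost with an array left out (adjusted p up to 0.0526).

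The other dual-specificity phosphatases and the stress kinases stood near the background, with 25% and 26.9% past the threshold beside 26% of all genes. Of 12 further Dusp genes, 2 fell (Dusp28, log2 change -0.89, and Dusp18, -0.75), 1 rose (Dusp12, 1.62) and 9 did not pass, and the calls of Dusp28 and Dusp18 were lost with an array left out (adjusted p up to 0.0798 and 0.109). Of 26 genes of the p38, JNK and ERK5 cascades, 5 fell, 2 rose and 19 did not pass, with a median of 0.03. The p38-activating kinase gene Map2k6 had a log2 change of -2.09, the upstream kinase gene Map3k6 one of -1.82 and the JNK scaffold gene Mapk8ip3 one of -1.07 (-0.64 with 16 units added). The p38 target kinase gene Mapkapk3 rose, with a log2 change of 1.73 (0.85 with 16 units added).

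Of 21 ERK substrate kinases and transcription factors, 0 fell, 2 rose and 19 did not pass. An unadjusted p under 0.05 was found for 7 of the 21, beside 40.1% of all genes. The share that passed was 9.52%, beside 26% of all genes. Srf, the serum response factor that binds the CArG box, had 105 and 81.8 on the Eva1 shRNA arrays, against 30.2 and 35.3 on the control arrays. It was 2.47-fold higher (log2 change 1.31, SE 0.17, adjusted p = 0.00615). Rps6ka6, an RSK family kinase gene, rose by 0.84, a call lost with an array left out (adjusted p up to 0.133) and with blank cells filled (0.0613). The CArG-holding window of Egr2 is printed above, and Egr2 fell. A link between the changes of Srf and Egr2 was not tested. Of 10 housekeeping genes, 2 rose (Tfrc, log2 change 1.01, and Tbp, 0.73) and 2 fell (B2m, -1.25, and Pgk1, -0.60), with a median of -0.01. Thus 40% of the housekeeping genes passed, beside 26% of all genes, though 10 genes are few. The calls of Tfrc, Tbp and Pgk1 were lost with an array left out (adjusted p up to 0.0615, 0.174 and 0.15), those of Tbp and Pgk1 also with blank cells filled, and that of Pgk1 with the intensities as deposited and with the replicate block.

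**Figure D4:**
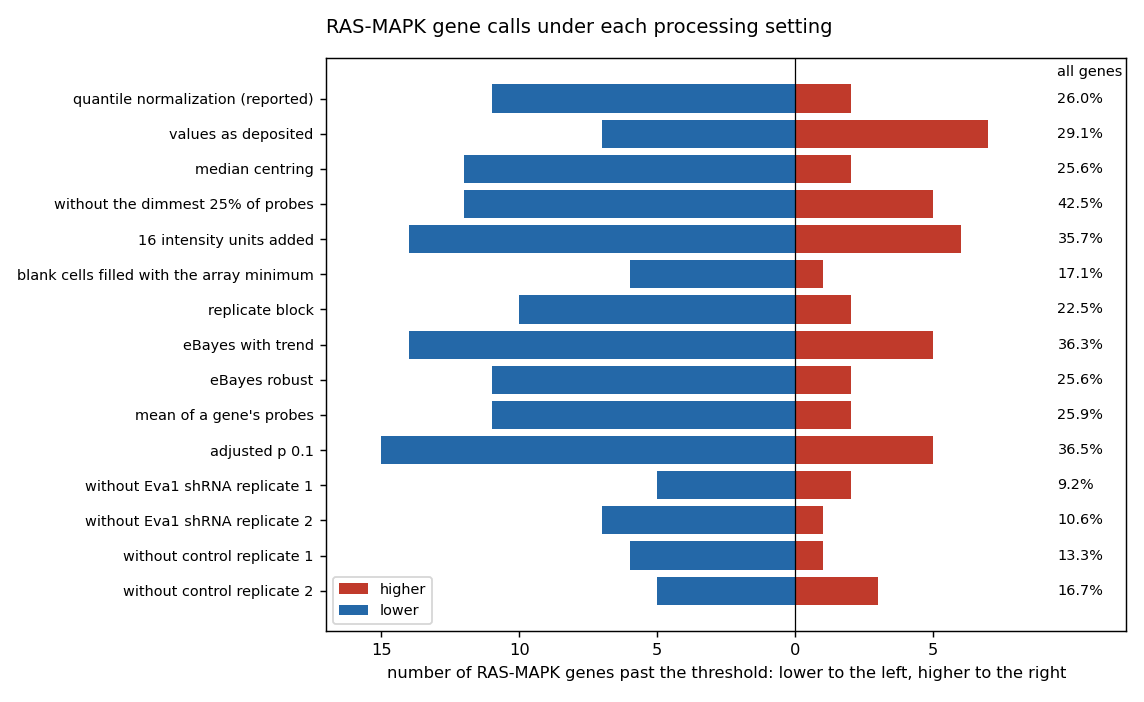
Number of the 44 RAS-MAPK genes called lower (blue, to the left) or higher (red, to the right) in Eva1 shRNA cells under each processing setting (39 genes where the dimmest probes were left out), with the share of all tested genes that passed printed at the right. The reported setting gives 11 and 2, the intensities as deposited give 7 and 7, and the counts lower run from 5 to 15 over all settings shown.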

How the data were processed

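Messenger RNA was measured on 4 one-colour arrays, 2 of Eva1 shRNA and 2 of control NSCL61 cells. The authors deposited linear intensity values, which the values themselves show to be scaled to a median near 25 on each array. Per the labels' protocols, total RNA was amplified and labelled with Cy5, and no source used here gives the scanner, the background correction or the rule for blank cells. Precision is limited by the number of arrays (2 residual degrees of freedom). The platform annotation gave 1 gene symbol for 16631 of 23473 probes, several for 0 and none for 6842. A RefSeq table of GRCm38.p6 held 12622 of these symbols as current, and 3947 were brought up to date, 59 were ambiguous and 3 had no match. Promoter windows are RefSeq sequence of that build.

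Probes with a value on each of the 4 arrays, 19199 in number, were put on the log2 scale and quantile normalized, because array medians differed by 0.274, above a limit of 0.1. The probe with the highest mean stood for each gene, which gave 13765 genes. Groups were compared with limma 3.58.1 in R 4.3.3 (lmFit and eBayes, two-sided), with Benjamini-Hochberg adjustment over all genes and a threshold of 0.05. The procedure was also run on simulated data. Far fewer genes were changed there than were called here, so that run is no check of these calls. The alternatives were the intensities as deposited, median centring, omission of the dimmest 25% of probes, 16 units added, blank cells filled with the array's lowest value, a block for the replicate number, a trended or a robust eBayes, averaging all probes of a gene, a threshold of 0.1 and omission of each array. Genes were named by a rule: Mpzl2, every RAS-MAPK gene, and up to 4 genes of each further list with the smallest p among those that passed. The list of 46 genes, the further lists and the rule were chosen with earlier results of these data known. Egr2, Braf, Dusp1 and Dusp6 windows were chosen after their values were seen, and the marker genes and the other comparisons follow their lists. Plots used Python 3.11.15 and matplotlib 3.10.9.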

Additional observations from a re-analysis of the deposited data

How the results depend on the processing

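With 1 array left out, the RAS-MAPK genes called lower numbered 5 to 7 (11 with all arrays) and those called higher 1 to 3 (2 with all arrays), while over all genes 730 to 1156 were lower and 541 to 1145 higher, in place of 1856 and 1720. The log2 change of Mpzl2 ran from -3.29 to -2.98, and it was -1.71 with 16 units added to all 4 arrays. By the array omitted, the counts of lower and of higher genes were 5 and 2 (Eva1 shRNA array 1), 7 and 1 (Eva1 shRNA array 2), 6 and 1 (control array 1) and 5 and 3 (control array 2). Those fits have fewer samples, and the lone array of a group is assumed to vary like the others. The number called higher was 7 with the intensities as deposited, 5 when the dimmest 25% of probes were left out, 6 after adding 16 units, 1 with blank cells filled, 5 with eBayes trend and 5 at a threshold of 0.1. The number called lower was 7 as deposited and 6 with blank cells filled. As deposited, 2714 genes in all were called higher, and 6 of the 44 genes changed sign without passing either way. Of 611 comparisons of a RAS-MAPK gene with its reported result, 537 stayed on the same side of the threshold (523 with the same sign and 14, of 7 genes that did not pass, with the sign changed), 38 lost the call, 35 gained one and 1 reversed: Nf1 had a log2 change of 0.84 (adjusted p = 0.0452) without control array 2 and of -0.90 (adjusted p = 0.0448) without control array 1, against -0.03 with all arrays. The causes were not tested. Same-numbered arrays did not deviate together (r = -0.0093 across probes). With the replicate number as a block, 10 of the 44 genes were called lower and 2 higher, and 3102 of all genes were called, in place of 3576. A change that lies under about the array median of 25 rests on dim signal, which limits Nf1, Spred2, Spry2, Etv1 and Egr3 most.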
